A study of Mus musculus with 4 samples.

Results

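Kcnj8 and Abcc9, which encode the pore and the regulatory subunit of an ATP-sensitive potassium (KATP) channel, were followed across the stromal cells of the mouse small intestine. They are 2 of the 3891 complete gene rows of the single cell table, and were chosen because their high level in Sox6-expressing subepithelial cells was already known from these data, so their levels are given as a description with no test. All cells came from wild type C57Bl/6 male mice, aged 8 weeks by the labels, and were sorted as live CD45neg, EpCAMneg, CD31neg and gp38+ (PDPN+), a gate that retains fibroblasts and should lack immune, epithelial and endothelial cells. The 2 10X Genomics libraries held 2547 and 14344 cells with a median of 8757 and 6874 unique molecular identifiers (UMIs, counted mRNA molecules) per cell, and 2 Smartseq2 plates held 360 and 379 cells. The number of mice per library is not given in the sources used here, so the 10X library was the replicate. The p values below measure the spread between 2 libraries only. That spread was taken after a library term, pooled over 7 cell groups and moderated across genes. The libraries shared 7 cell barcodes. No treatment was applied and no group carries an engineered allele.

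KATP channels open when the ATP of the cell falls relative to ADP, and their opening lets potassium out, hyperpolarizes the membrane and lowers calcium entry through voltage-gated channels. The pore is built from an inward rectifier subunit, here Kcnj8 (Kir6.1), and the sulfonylurea receptor Abcc9 (SUR2) binds the nucleotides and the opener drugs. Kcnj8 with Abcc9 is the pair known from the smooth muscle and pericytes of vessels, where signals through cAMP and cGMP open the channel and constrictor receptors acting through Gq close it. The alternative pair of Kcnj11 and Abcc8 is known from pancreatic beta cells.

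Cells of the 10X libraries were grouped by UMIs of a few genes, each cell entering the first gate that it met. Cells with Sox6 were called subepithelial (285 cells in library 1 and 2699 in library 2) and were split by Wif1 and by Adamts18. Of the rest, cells with at least 2 of Hhip, Cnn1 and Actg2 were smooth muscle (35 and 174), cells with at least 3 of Inmt, Penk, Vit and Scara5 mesothelial-like (330 and 1103), and cells with at least 3 of Chodl, Dner, Thbs2 and Ptn the Fibin type (95 and 681). The remaining cells with Grem1 (1019 and 4799) and then with Lpl (595 and 3635) formed 2 more groups, and 188 and 1253 cells met no gate. Markers outside the gates fitted these names unequally. Of the subepithelial markers, 8 of 10 in library 1 and 9 of 10 in library 2 were highest in the Sox6 gate, with Tnc higher in the Fibin type. All 8 smooth muscle markers and all 7 Fibin type markers were highest in their own gate in both libraries, as were 7 of 8 for the mesothelial-like gate. The crypt markers did not follow the Grem1 gate (0 of 8 and 3 of 8 highest there), and 4 of 8 and 5 of 8 villus markers followed the Lpl gate, so these are called Grem1 cells and Lpl cells. Of the Sox6 cells of both libraries, 99 also carried markers of immune, glial, epithelial or endothelial cells.

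Both genes lie on chromosome 6 of GRCm38 on the minus strand (GENCODE M21). Kcnj8 (ENSMUSG00000030247) spans 142564837 to 142571614, with up to 3 exons in a coding transcript, and Abcc9 (ENSMUSG00000030249) spans 142587862 to 142702315, with up to 41 exons. They are separated by 16247 bases with 0 protein-coding genes between them. The 300-base RefSeq promoter windows (GRCm38.p6, minus strand, read 5′ to 3′) are shown because the 2 genes were expressed in the same cells. The Kcnj8 window is chr6:142571565-142571864 and the Abcc9 window chr6:142702225-142702524. Capitals mark matches to the short motifs named after them.

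Kcnj8: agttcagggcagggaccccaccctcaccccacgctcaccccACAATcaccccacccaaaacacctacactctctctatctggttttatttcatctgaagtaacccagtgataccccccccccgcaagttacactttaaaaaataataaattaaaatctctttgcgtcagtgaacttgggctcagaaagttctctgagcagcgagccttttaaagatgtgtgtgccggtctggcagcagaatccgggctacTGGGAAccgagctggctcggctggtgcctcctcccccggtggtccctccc

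Abcc9: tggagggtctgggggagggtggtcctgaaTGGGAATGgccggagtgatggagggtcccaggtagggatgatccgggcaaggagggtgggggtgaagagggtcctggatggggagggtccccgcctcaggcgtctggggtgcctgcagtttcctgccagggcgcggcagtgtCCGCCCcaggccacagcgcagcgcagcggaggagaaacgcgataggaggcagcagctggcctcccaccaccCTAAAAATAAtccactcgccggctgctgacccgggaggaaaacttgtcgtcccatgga

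The motifs searched on both strands were the CArG box of serum response factor, GGAATG (TEAD), ACAAT (SOX factors), TGGGAA (RBPJ), GGGCGG (GC box) and CANNTG (E box). Positions are counted from 1 at the 5′ end of each window, and the last 50 bases lie after the start site. The Kcnj8 window held ACAAT at position 42 and TGGGAA at position 251, and the Abcc9 window held TGGGAA at position 30, GGAATG overlapping it at position 32 and a GC box, as CCGCCC, at position 172. Among 32851 promoter windows of the same length, TGGGAA was found in 25.6%, ACAAT in 31.0%, GGAATG in 14.7%, GGGCGG in 35.7% and the E box, which had 1 match in each gene and is not marked, in 72.3%. TGGGAA and the E box were thus the motifs found in both windows, and each is common. The CArG box was in neither window and in 1.63% of all windows. A MEF2 site, looked for only after the sequence had been read, matched the Abcc9 window at position 243 (1.86% of all windows) and not the Kcnj8 window. The Kcnj8 window was 53.3% G or C with 9 CpG, and the Abcc9 window 65.7% with 16 CpG, against medians of 52.7% and 7. A match is a string of letters and not a shown binding site.

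Kcnj8 was highest in the Sox6 cells, next in the Fibin type and low elsewhere. In the subepithelial cells it reached 2.53 UMIs per 10000 UMIs in library 1 (95% Poisson interval 2.36 to 2.72) and 1.87 in library 2 (1.81 to 1.92). In the Fibin type its level was 1.45 (1.19 to 1.74) and 0.781 (0.706 to 0.861). The smooth muscle gate held 0.332 (0.166 to 0.595) and 0.105 (0.0576 to 0.177). Mesothelial-like cells held 0.0152 and 0.0448, Grem1 cells 0.00556 and 0.0337, and Lpl cells 0.0167 and 0.0775. These low groups stood higher in library 2 than in library 1, while the Sox6 cells stood lower. The subepithelial level was 6.82-fold and 7.97-fold the mean of the mesothelial-like, Fibin, Grem1 and Lpl groups (log2 fold 2.88 ± 0.16, SD, n = 2 libraries). Without the Fibin type in that mean the folds were 203 and 35.9. The divisor then held 5, 5 and 8 UMIs in the 3 groups of library 1, and the intervals of the Grem1 cells (0.00181 to 0.01299 and 0.0279 to 0.0404) and of the Lpl cells (0.00723 to 0.03299 and 0.0664 to 0.0898) did not overlap between the libraries. Intervals here cover counting error only.

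Abcc9 followed the same order at the top. Its level in the subepithelial cells was 3.79 UMIs per 10000 in library 1 (3.57 to 4.01) and 3.51 in library 2 (3.44 to 3.59). The Fibin type held 2.01 (1.71 to 2.35) and 1.93 (1.81 to 2.05), and the smooth muscle gate 0.514 (0.299 to 0.822) and 0.346 (0.254 to 0.462). Mesothelial-like cells held 0.149 and 0.198, Grem1 cells 0.0634 and 0.0879, and Lpl cells 0.0188 and 0.138. The subepithelial level was 6.77-fold and 5.97-fold the mean of the 4 other fibroblast groups (log2 fold 2.67 ± 0.13, SD, n = 2), and 49.2-fold and 24.9-fold without the Fibin type in that mean (5.13 ± 0.70). In both libraries and for both genes the order was subepithelial Wif1+, subepithelial Wif1-, Fibin type, smooth muscle and then the 3 remaining groups. Below the Fibin type the order was not settled. The Kcnj8 intervals of Lpl and mesothelial-like cells overlapped in library 1, as did those of the smooth muscle gate and Lpl cells in library 2, and for Abcc9 the Lpl cells were the lowest group in library 1 but not in library 2. Of all UMIs in the library, the Sox6 cells held 83.7% and 84.6% for Kcnj8 and 79.4% and 80.7% for Abcc9, while they made up 11.2% and 18.8% of the cells. The Fibin type added 12.4% and 7.88% of the Kcnj8 UMIs and 10.9% and 9.88% of the Abcc9 UMIs.

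**Figure D1:**
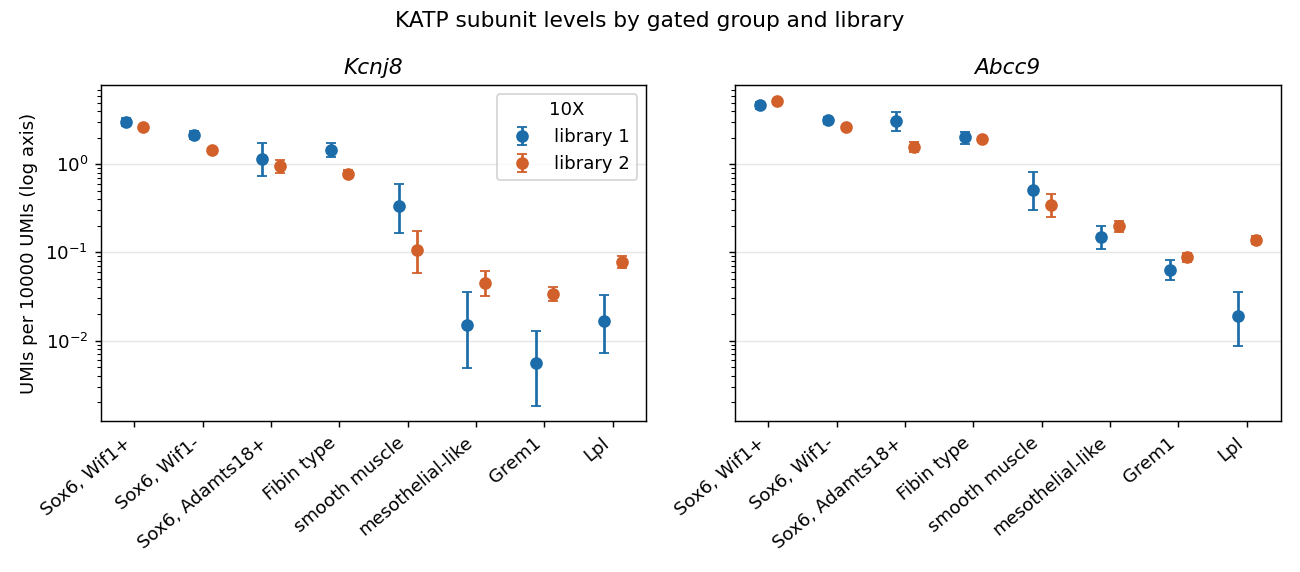
Levels of Kcnj8 and Abcc9 in UMIs per 10000 UMIs on a log axis, by gated group (x axis) and 10X library (color), with exact 95% Poisson intervals. The Sox6 and Fibin groups sit near or above 1 in both panels and libraries, and the Grem1 and Lpl cells below 0.2.

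Of the alternative KATP pair, Kcnj11 was not analysed here. Abcc8 had 0 UMIs in library 1 and 18 UMIs, in 11 cells, in library 2, against 922 and 5076 UMIs of Kcnj8 and 1454 and 10004 of Abcc9. The neighbour Ldhb (lactate dehydrogenase B, 142490249 to 142507957, minus strand) was highest in the Fibin type, at 0.864 and 0.773 UMIs per 10000, and reached 0.499 and 0.410 in the Sox6 cells, which is not the order of the KATP subunits. An antisense gene within Abcc9 on the plus strand, 5330439B14Rik, had 0 UMIs in both libraries.

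A Kcnj8 UMI was found in 75.4% of the subepithelial cells of library 1 (exact Clopper-Pearson 95% interval 70.0 to 80.3) and 60.4% of library 2 (58.6 to 62.3), and an Abcc9 UMI in 84.2% (79.4 to 88.2) and 75.6% (73.9 to 77.2). Both subunits were found in 67.7% (62.0 to 73.1) and 54.4% (52.5 to 56.3) of these cells. A cell with Kcnj8 nearly always carried Abcc9 as well (89.8% and 90.0%), and 80.4% and 72.0% of the cells with Abcc9 carried Kcnj8. In the Fibin type, Kcnj8 was found in 52.6% and 34.9% of cells, Abcc9 in 63.2% and 63.1%, and both in 37.9% and 27.2%. The background was read from immune cells outside the Sox6 and Fibin gates, which should lack the channel and had a median of 9892 and 6612 UMIs: 2.33% of 43 cells (0.0589 to 12.3) and 2.48% of 161 cells (0.681 to 6.24) had a Kcnj8 UMI, and 2.33% and 4.35% (1.77 to 8.75) an Abcc9 UMI. The Kcnj8 shares of the mesothelial-like (1.52% and 3.17%), Grem1 (0.491% and 2.31%) and Lpl cells (1.18% and 3.19%) lay within these intervals, so as shares they were not separated from the background. A part of the Lpl cells with Kcnj8, 3 of 7 and 55 of 116, also had Abcc9 and is described below. For Abcc9 the same holds of the Grem1 cells (4.02% and 5.40%) and the Lpl cells (0.672% and 4.87%), although the Abcc9 level of the Lpl cells in library 2 (0.138, interval 0.123 to 0.154) lay above that of these immune cells (0.0579, 0.0233 to 0.119). The mesothelial-like cells had Abcc9 in 10.0% (6.98 to 13.8) and 12.1% (10.2 to 14.1), at median depths of 9982 and 8046 UMIs, and the value of library 2 lay above the immune interval. Over all immune cells, those in the Sox6 and Fibin gates included, Abcc9 was found in 8.70% (2.42 to 20.8) and 12.02% (7.69 to 17.6). A Kcnj8 UMI was found in 8.70% (2.42 to 20.8) and 8.74% (5.08 to 13.8) of them. The Abcc9 intervals hold the mesothelial-like values. They include cells of the 2 gates where both genes were high, so they cannot serve as a background.

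Shares of cells depend on depth, and the Sox6 cells were the deepest group (median 11064 and 8299 UMIs, against 7859 and 5949 in Lpl cells). With each cell thinned to 2000 UMIs, and 2 and 28 shallower Sox6 cells left out, Kcnj8 was found in 34.6% (29.1 to 40.5) and 26.3% (24.6 to 28.0) of the subepithelial cells, Abcc9 in 50.9% and 44.4%, and both in 18.4% (14.04 to 23.4) and 15.1% (13.8 to 16.5). The Fibin type then had Kcnj8 in 25.3% (16.9 to 35.2) and 15.5% (12.8 to 18.4) and both in 9.47% and 7.06%. It had Abcc9 in 27.4% (18.7 to 37.5) and 31.7% (28.2 to 35.4). Lpl cells had Kcnj8 in 0.172% and 0.986%, Grem1 cells in 0.397% and 0.841%, and both subunits were found in at most 0.422% of either group. The Sox6 cells thus stood above the Fibin type at equal depth in library 2, while in library 1 their Kcnj8 intervals overlapped.

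**Figure D2:**
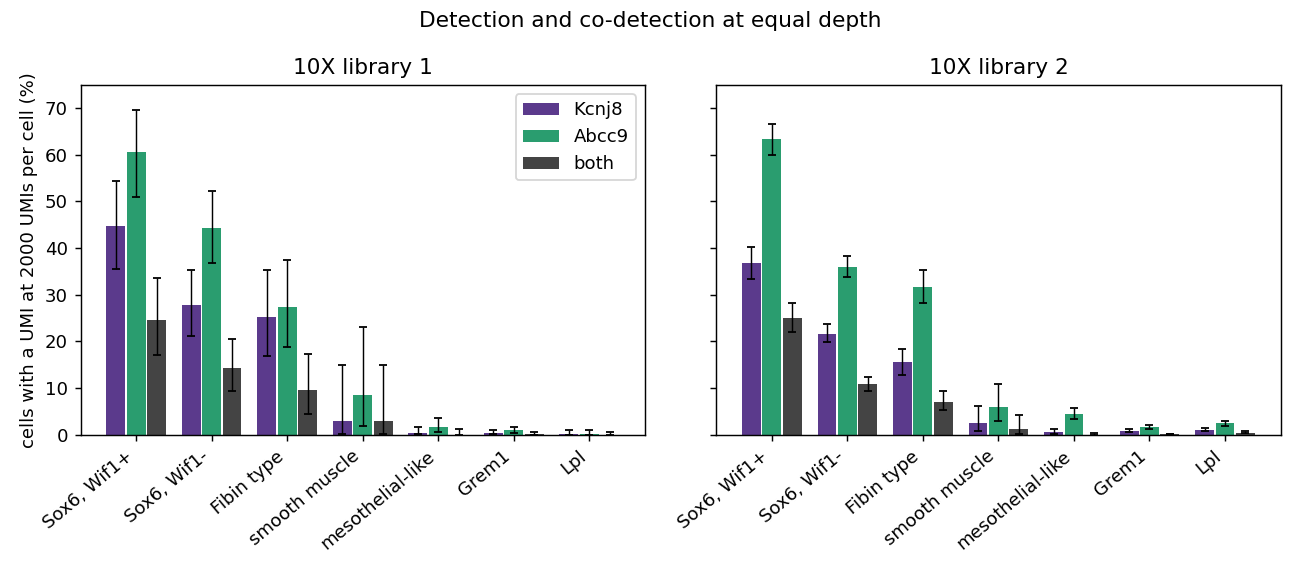
Share of cells with a UMI of Kcnj8, of Abcc9 and of both (y axis, percent) after thinning every cell to 2000 UMIs, by gated group and 10X library, with exact 95% binomial intervals. Subepithelial Wif1+ cells are highest for both genes, and co-detection is near 0 in the mesothelial-like, Grem1 and Lpl cells.

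Co-detection was compared with the share that independent detection would give within 5 classes of depth. In the subepithelial cells the observed share was 1.04 and 1.14 times that value, and in the Fibin type 1.07 and 1.19 times. Within the Wif1+ cells it was 0.992 and 1.01 times, and within the Wif1- cells 1.08 and 1.22 times. Abcc9 was found in 95.6% and 95.7% of the Wif1+ cells, which leaves this ratio little room to move there. In Lpl cells the ratio was 44.6 and 9.65 and in Grem1 cells 11.1 and 2.89, on few cells. Of 240 and 1763 cells with both subunits in the libraries, 80.4% and 83.3% lay in the Sox6 gate, 15.0% and 10.5% in the Fibin type, 3 and 55 cells among the Lpl cells and 3 and 18 among the Grem1 cells.

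The 3 and 55 Lpl cells with both subunits carried genes of the Sox6 cells. Pdgfra, the receptor that marks subepithelial stromal cells, stood at 16.5 and 17.98 UMIs per 10000 in them, against 3.78 and 4.68 in the other Lpl cells and 25.5 and 25.2 in the Sox6 cells. Ednrb, an endothelin receptor, stood at 16.8 and 12.4 against 0.0906 and 0.555, and Bmp5 at 9.06 and 8.79 against 1.04 and 1.33. The Fibin type held Pdgfra at 22.6 and 22.3, so this gene does not tell it from the Sox6 cells. Its Ednrb (0.0635 and 0.121) and Bmp5 (0.0381 and 0.137) were low. Rgs5, a mural cell gene, was at 0 and 4.43 in them and at 16.8 and 22.3 in the other Lpl cells. These cells had 0 Sox6 UMIs by construction, and whether Sox6 was missed in them by chance was not tested. The 3 and 18 Grem1 cells with both subunits did not show this in library 1 and showed it in part in library 2. Their Pdgfra stood at 2.51 and 9.51, against 3.65 and 4.63 in the other Grem1 cells. Their Ednrb stood at 0 and 4.18 against 0.0145 and 0.111, and their Bmp5 at 0 and 3.46 against 0.440 and 0.519.

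The values on either side of the Sox6 threshold are given without a test, since the rule used it. Cells with 0 Sox6 UMIs held 0.0780 and 0.0982 Kcnj8 UMIs per 10000, cells with 1 held 0.808 and 0.796, cells with 2 held 1.64 and 1.57, and cells with 3 or more held 2.78 and 2.23. For Abcc9 the same 4 classes held 0.156 and 0.242, 1.27 and 1.49, 1.73 and 2.68, and 4.21 and 4.25. Both subunits were found in 2.08% and 2.53% of cells with 0 Sox6 UMIs, 21.9% and 22.5% with 1, 38.5% and 47.2% with 2, and 77.5% and 67.6% with 3 or more. The class with 3 or more was also deeper, with a median of 11703 and 9049 UMIs against 7964 and 7069 for cells with 1, and the part of depth in this gradient was not tested for the shares. The levels per 10000 are scaled to depth.

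**Figure D3:**
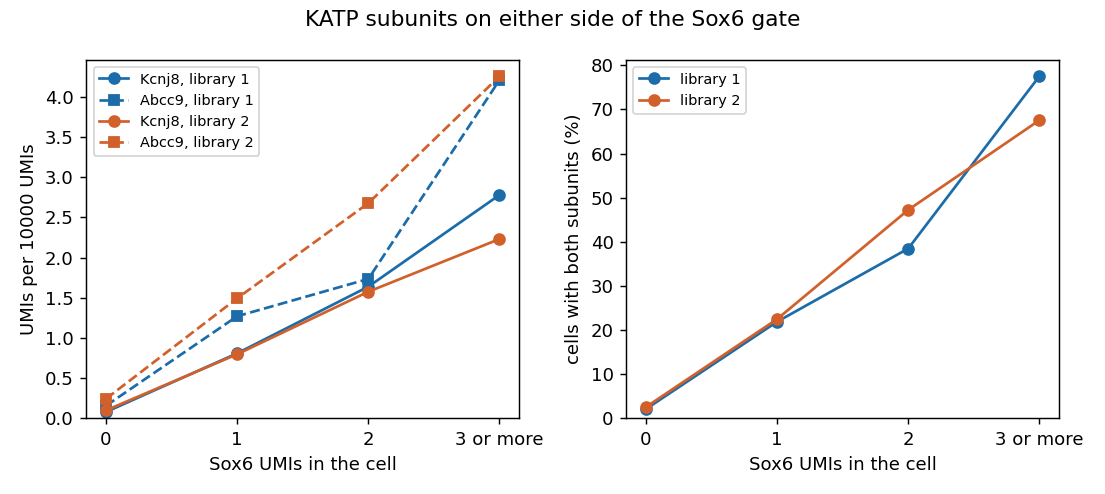
Left, levels of Kcnj8 (circles) and Abcc9 (squares) in UMIs per 10000 by the number of Sox6 UMIs in the cell and 10X library (color). Right, the share of cells with both subunits (percent). Every line goes up from 0 to 3 or more Sox6 UMIs.

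Within the subepithelial cells both genes were higher where Wif1, a secreted Wnt inhibitor, was detected. Kcnj8 stood at 3.03 (2.74 to 3.34) and 2.64 (2.53 to 2.76) UMIs per 10000 in 114 and 821 Wif1+ cells, and at 2.15 (1.94 to 2.38) and 1.46 (1.402 to 1.525) in 171 and 1878 Wif1- cells. The fold was 1.41 and 1.81 (log2 fold 0.67 ± 0.25, SD, n = 2 libraries). Abcc9 stood at 4.63 and 5.15 in Wif1+ cells and at 3.14 and 2.65 in Wif1- cells, a fold of 1.48 and 1.94 (log2 fold 0.76 ± 0.28). The Wif1+ and Wif1- intervals did not overlap for either gene in either library. Wif1+ cells were deeper (median 11976 and 9701 UMIs, against 10493 and 7724), and among cells of at least 6000 UMIs the log2 folds were 0.67 and 0.74 for Kcnj8 and Abcc9. Thinned to 2000 UMIs, both subunits were found in 24.6% (17.0 to 33.5) and 25% (22.1 to 28.1) of Wif1+ cells and in 14.2% (9.32 to 20.4) and 10.8% (9.41 to 12.3) of Wif1- cells, intervals that overlap in library 1 and not in library 2. Genes of glia moved with this split. The summed level of 11 glial markers was 0.343 and 1.85 UMIs per 10000 in Wif1- cells and 0.0678 and 0.187 in Wif1+ cells. With glial, immune, epithelial and endothelial cells left out the log2 folds were 0.64 and 0.74.

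Adamts18, the gene by which the study marks villus tip telocytes, was detected in 18 and 178 subepithelial cells, of which 0 and 4 also had Wif1. Kcnj8 stood at 1.16 (0.743 to 1.72) and 0.944 (0.799 to 1.11) UMIs per 10000 in these cells, against 2.63 (2.45 to 2.83) and 1.94 (1.88 to 1.997) in subepithelial cells without Adamts18. The fold was 0.440 and 0.487, lower in both libraries. Abcc9 stood at 3.09 (2.38 to 3.95) against 3.84 (3.62 to 4.08) in library 1, where the intervals overlap, and at 1.56 (1.38 to 1.77) against 3.66 (3.58 to 3.74) in library 2. Among Wif1- cells alone, the Adamts18+ cells held 0.507 and 0.611 times the Kcnj8 and 0.983 and 0.544 times the Abcc9 of the Adamts18- cells. The KATP subunits were present in the Adamts18+ cells, where 66.7% and 38.2% had both, at a Kcnj8 level below that of the other subepithelial cells, and with 18 cells in library 1 the size of the Abcc9 difference could not be fixed. With cells that meet a second gate left out, only 3 and 13 Adamts18+ cells remained, with 0.531 and 0.341 times the Kcnj8 and 0.360 and 0.0667 times the Abcc9 of the others.

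The number of Abcc9 UMIs per Kcnj8 UMI carries the capture of each gene and is compared only between groups. It was 1.496 (1.36 to 1.64) and 1.88 (1.81 to 1.95) in the subepithelial cells and 1.39 (1.08 to 1.78) and 2.47 (2.197 to 2.78) in the Fibin type. The Fibin type thus lay below the Sox6 cells in library 1, within counting error, and above them in library 2. Wif1+ and Wif1- cells had 1.53 and 1.46 in library 1 and 1.95 and 1.81 in library 2. The mesothelial-like cells had 9.80 (3.93 to 31.5) and 4.41 (3.13 to 6.36), on 5 and 41 Kcnj8 UMIs, and the Grem1 cells 11.4 (4.61 to 36.4) and 2.60 (2.102 to 3.25), on 5 and 119.

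The Fibin type, fibroblasts named for the secreted protein Fibin, was the second group with the channel genes. Against the mean of mesothelial-like, Grem1 and Lpl cells, Kcnj8 was 116-fold and 15.0-fold higher (log2 fold 5.38 ± 2.08, SD, n = 2) and Abcc9 26.1-fold and 13.7-fold (4.24 ± 0.66). The Kcnj8 level of the Grem1 and Lpl cells in the divisor differed between the libraries beyond counting error, and the cause was not tested. Subepithelial cells held 1.75 and 2.39 times the Kcnj8 and 1.89 and 1.82 times the Abcc9 of the Fibin type.

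In the smooth muscle gate, 5 of 35 and 8 of 174 cells had a Kcnj8 UMI, and the folds over the mean of the 4 fibroblast groups were 0.895 and 0.450 for Kcnj8 and 0.918 and 0.589 for Abcc9. Without the Fibin type in that mean the folds were 26.6 and 2.03 for Kcnj8 and 6.67 and 2.45 for Abcc9. The cells with a Kcnj8 UMI carried genes of both the Fibin type and smooth muscle. They held Fibin at 34.1 and 21.02 UMIs per 10000, against 0.926 and 1.28 in smooth muscle cells without Kcnj8, and Kcnn3, a small-conductance calcium-activated potassium channel, at 12.96 and 12.3 against 0.214 and 1.13. Their Myh11, the smooth muscle myosin heavy chain, was lower, at 6.98 and 5.29 against 15.8 and 19.9. It was still above the Fibin type, which held 0.127 and 0.141. Their Acta2 stood at 21.3 and 31.5, against 6.53 and 5.94 in the Fibin type. Of the cells with a Kcnj8 UMI, 4 of 5 and 7 of 8 also had at least 2 of the 4 Fibin gate genes. With cells left out that meet a second of the first 4 gates, a choice made after seeing the data, 29 and 154 smooth muscle cells remained, with 1 and 2 Kcnj8 UMIs (0.0364 and 0.0178 per 10000) and 0 and 9 Abcc9 UMIs. A count of 0 allows up to 0.109 per 10000 there (3 counts). Kcnj8 was then 0.0981 and 0.0764 times the mean of the 4 fibroblast groups. The interval of these smooth muscle cells (0.000922 to 0.203 and 0.00216 to 0.0644) overlapped that of the Grem1 cells in both libraries, and lay below that of the Lpl cells in library 2 (0.0664 to 0.0898).

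Markers of pericytes and mural cells, in which this channel is best known, were mixed in the Sox6 cells. Of 22 such markers 15 were measured and 9 tested against the other fibroblasts, with 5 higher, 2 lower and 2 not called, where limma called 74.8% of all genes. Their summed level was 6.90 and 10.9 UMIs per 10000 in the Sox6 cells, 12.7 and 13.3 in the Fibin type and 19.8 and 25.9 in Lpl cells, where Kcnj8 was low. Rgs5 carried most of the sum in Lpl cells, and without it, a choice made after seeing the data, the other 14 summed to 4.67 and 6.66 in the Sox6 cells, 5.005 and 4.66 in the Fibin type and 3.12 and 3.91 in Lpl cells. In the Sox6 cells, 9 and 7 of the 15 were under 0.1 UMIs per 10000. Among these were Notch3 (0.0197 and 0.0144), Vtn (0.0131 and 0.0170) and Gja4 (0 in both libraries). This was not particular to the Sox6 cells. In the Fibin type 8 and 8 were under 0.1, in the smooth muscle gate 9 and 8, and in Lpl cells 10 and 9. Notch3 was also low in the Fibin type (0.0635 and 0.0293). Rgs5 was lower in the Sox6 cells than in the other fibroblasts by limma (natural log difference -1.18 ± 0.06, SE, n = 2 libraries, Benjamini-Hochberg adjusted p = 1.31e-08, lower in 2 of 2 libraries). Cspg4 (NG2), at 1.74 and 1.96 UMIs per 10000 in the Sox6 cells, was higher there by 0.54 ± 0.03 (SE, limma adjusted p = 5.11e-08, 2 of 2).

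The genes whose pattern over the 7 gated groups was most like that of each subunit were found by Pearson r of log2(UMIs per 10000 + 0.1), ranked by the lower of the 2 libraries over 1983 genes. By this rule the gene most like Kcnj8 was Abcc9, and the gene most like Abcc9 was Kcnj8 (r = 0.99 in both libraries, n = 7 groups). In library 1 alone Hspa12a stood nearer to Kcnj8 than Abcc9 did (0.98958 against 0.98919). In library 2 alone Ltbp2 did (0.99298 against 0.98905). After Abcc9, Kcnj8 was followed by Ltbp2 (a latent TGF-beta binding protein, r = 0.99 and 0.99), Cybrd1 (a ferric reductase, 0.97 and 0.99), Hspa12a (0.99 and 0.97) and Gng2 (a G protein gamma subunit, 0.97 and 0.97). Abcc9 was followed by Ltbp2 (0.97 and 0.97), Pdgfra (0.98 and 0.97), Cst3 (0.97 and 0.97) and Hspa12a (0.99 and 0.97). The groups share their libraries and gates, and 7 points let many genes reach a high r, so this is a description. None of these was a gate gene. Ltbp2 stood at 1.18 and 1.21 UMIs per 10000 in Wif1+ cells and 1.64 and 0.963 in Wif1- cells, so its order within the Sox6 gate was the reverse of that of the KATP subunits in library 1, with 0.622 and 0.463 in the Fibin type and 0.0147 and 0.0876 in Lpl cells. Cst3 was high everywhere, from 5.42 to 19.4.

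**Figure D4:**
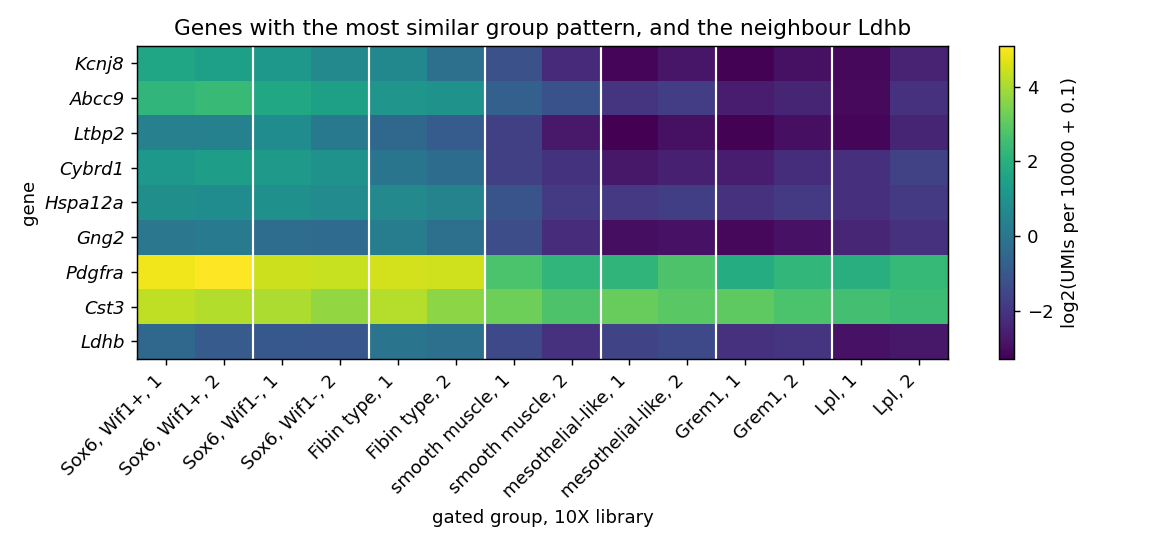
Heat map of log2(UMIs per 10000 + 0.1) for the KATP subunits, the genes with the most similar pattern and the neighbour Ldhb (rows), in 7 gated groups of 10X libraries 1 and 2 (columns). The first 6 columns, of the Sox6 and Fibin groups, are brighter than the rest in every row, least so for Ldhb and Cst3.

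Genes that work with or against KATP channels were compared between the subepithelial cells and the mean of the 4 other fibroblast groups. Limma with Benjamini-Hochberg adjustment called 1285 of 1719 genes at an adjusted p under 0.05 (74.8% of genes tested, 43.7% higher and 31.0% lower), so a list has to be read against that share. The groups were gated in the same cells, and gate genes and the 2 subunits are not counted. Differences below are of mean natural log values, with the limma SE over 2 libraries, and each gene named had the same sign in 2 of 2 libraries.

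Other potassium and chloride channels did not move as a block. Of 42 listed, 22 were measured and 9 tested, with 5 higher, 2 lower and 2 not called, near the share among all genes, and their median difference was 0.06 against 0.02 over all genes. The highest was Kcnk2 (TREK-1, a mechanosensitive background channel), at 2.80 and 4.58 UMIs per 10000 in the Sox6 cells (0.77 ± 0.05, adjusted p = 1.71e-07). Lpl cells held 2.58 and 3.23 of it, and the Fibin type 0.216 and 0.670. Kcnab1, a beta subunit of voltage-gated channels, was higher by 0.30 ± 0.01 (adjusted p = 6.72e-09) and Kcnmb1, the beta subunit of the large-conductance calcium-activated channel, by 0.13 ± 0.01 (adjusted p = 7.35e-06). Kcnn3 was lower by limma (-0.52 ± 0.04, adjusted p = 3.86e-07), with 0.692 and 1.08 UMIs per 10000 in the Sox6 cells against 11.2 and 12.7 in the Fibin type.

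Receptors and enzymes of the cAMP and cGMP pathways, which open the channel in vessels, were called in 10 of 10 tested (of 37 listed and 19 measured), 6 higher and 4 lower, with a median of 0.21 against 0.02. Without the filter on low values, 6 of 19 were higher and 7 lower, with a median of -0.00064. With cells that meet a second gate left out, 4 of 10 were higher and 4 lower, with a median of 0.088. The list thus had no settled direction. Adcy5, an adenylyl cyclase that makes cAMP, was higher by 0.51 ± 0.04 (limma adjusted p = 2.96e-07), the cAMP phosphodiesterase Pde4b by 0.45 ± 0.03 (4.23e-08), and Ptger2, a prostaglandin receptor that raises cAMP, by 0.25 ± 0.02 (4.23e-08). Lower were Pde3a, a phosphodiesterase inhibited by cGMP (-0.81 ± 0.06, limma adjusted p = 1.27e-07), Gucy1a1, a subunit of the nitric oxide-sensitive guanylyl cyclase (-0.34 ± 0.05, 9.13e-05), and Prkar2b, a regulatory subunit of protein kinase A (-0.32 ± 0.03, 4.90e-07). The divisor held the Fibin type, where these last 3 were highest, with Gucy1a1 at 15.5 and 13.6 UMIs per 10000 there, 1.95 and 1.77 in the Sox6 cells and 1.62 and 1.75 in Lpl cells.

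Of the constrictor receptors and their effectors, which close the channel through Gq and protein kinase C, 8 were tested (of 30 listed and 20 measured), with 3 higher, 4 lower and 1 not called. The endothelin receptors were the highest. Ednra stood at 4.09 and 4.34 UMIs per 10000 in the Sox6 cells and at 0.0635 to 0.437 in the 4 other fibroblast groups of both libraries (1.36 ± 0.03, limma adjusted p = 8.67e-12). Ednrb stood at 6.68 and 7.70 (1.29 ± 0.05, 1.07e-09). F2r, the thrombin receptor, was higher by 0.65 ± 0.04 (8.15e-08) but was also at 4.57 and 4.85 in the Fibin type. Lower were the angiotensin receptor Agtr1a (-0.21 ± 0.02, limma adjusted p = 3.86e-07), the prostaglandin F receptor Ptgfr (-0.15 ± 0.02, 3.78e-05) and the phospholipase Plcb4 (-0.10 ± 0.01, 1.24e-07).

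Most of the calcium entry and contractile genes tested were higher in the Sox6 cells. Of 16 tested (of 26 listed and 20 measured), 15 were higher, 0 lower and 1 not called, or 93.8% against 74.8% of all genes, with a median of 1.00 against 0.02. Acta2 (smooth muscle actin) was higher by 2.18 ± 0.07 (limma adjusted p = 4.36e-10), Tagln by 2.13 ± 0.07 (6.86e-10) and the myosin light chain Myl9 by 1.51 ± 0.07 (4.68e-09). Acta2 stood at 27.8 and 22.8 UMIs per 10000 in the Sox6 cells and at 41.7 and 45.6 in the smooth muscle gate, so cells with abundant contractile RNA were found both with the KATP subunits and nearly without them.

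**Figure D5:**
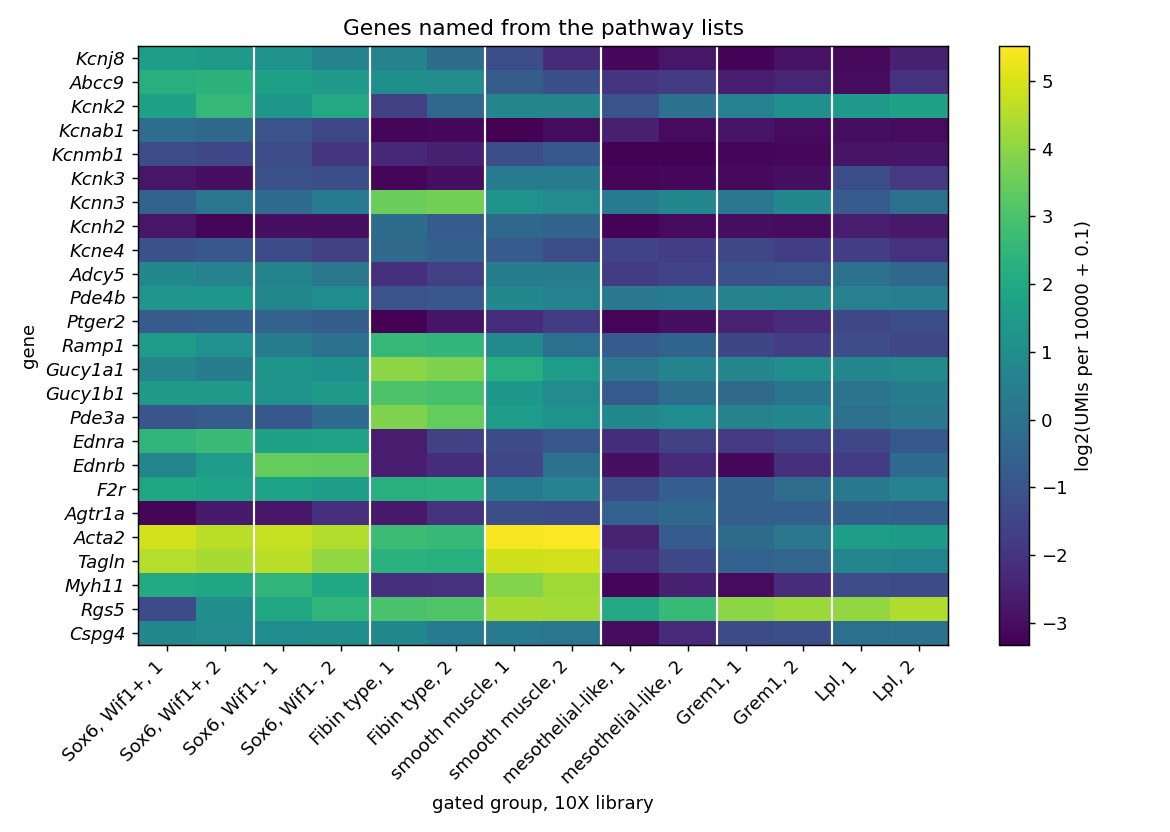
Heat map of log2(UMIs per 10000 + 0.1) for the KATP subunits and genes named from the lists of channels, cAMP and cGMP signalling, constrictor receptors, contractile genes and mural markers (rows), in 7 gated groups of 10X libraries 1 and 2 (columns). Ednra and Ednrb are brightest in the Sox6 groups, Kcnn3, Gucy1a1 and Pde3a in the Fibin type, and Acta2 and Myh11 in smooth muscle.

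Between Wif1+ and Wif1- subepithelial cells, limma called 320 of 1673 genes (19.1% of genes tested, 12.1% higher and 7.05% lower in Wif1+ cells). Of 10 other channels tested, 4 were higher and 2 lower. In 4 of 7 alternatives (no filter on low values, no mean trend, no library term, or cells of at least 6000 UMIs) 1 was higher and 2 lower. Kcnab1 was higher in Wif1+ cells, as the KATP subunits stood (0.24 ± 0.02, limma adjusted p = 2.98e-05), and Kcnk3 (TASK-1, an acid-sensitive background channel) was lower (-0.14 ± 0.02, 0.000185). Kcnk3 stood at 0.0452 and 0.0278 UMIs per 10000 in Wif1+ cells and at 0.354 and 0.335 in Wif1- cells. Ano1, a calcium-activated chloride channel, was lower too (-0.06 ± 0.01, 0.000320). Kcnk2 (0.32 ± 0.09, limma adjusted p = 0.0241) and Kcne4 (0.10 ± 0.03, 0.0477) passed narrowly, and lost the call in 4 and 6 of 7 alternatives. Of the cAMP and cGMP genes 2 of 9 were called, namely Ramp1, which forms the CGRP receptor with Calcrl (0.51 ± 0.07, 0.000550), and Pde4b (0.26 ± 0.05, 0.00169). Of the constrictor genes 2 of 6 were called, in opposite directions. Ednra was higher in Wif1+ cells (0.65 ± 0.04, limma adjusted p = 1.28e-06) at 5.35 and 6.35 against 3.13 and 3.28 UMIs per 10000, and Ednrb lower (-0.92 ± 0.08, 9.84e-06) at 1.57 and 2.78 against 10.6 and 10.3. Of 16 calcium entry and contractile genes, 4 were higher and 0 lower, with Gja1, a gap junction protein, the furthest apart (0.53 ± 0.05, 1.92e-05), followed by Cald1 (0.47 ± 0.12, 0.0174) and Cnn2 (0.42 ± 0.06, 0.000395). Of 9 mural markers, 1 was higher (Foxs1, 0.12 ± 0.02, 0.000375) and 4 lower, including Rgs5 (-0.63 ± 0.10, 0.000965), Gm13889 (-0.26 ± 0.08, 0.0298) and Pdgfa (-0.10 ± 0.03, 0.0194), of which Gm13889 and Pdgfa lost the call in 4 of 7 alternatives each.

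The Fibin type was compared with the mean of mesothelial-like, Grem1 and Lpl cells, where limma called 1182 of 1683 genes (70.2% of genes tested, 35.2% higher and 35.1% lower). Of 9 other channels, 4 were higher and 3 lower. Kcnn3 was higher by 1.89 ± 0.05 (limma adjusted p = 3.58e-10), Kcnh2, the channel known as hERG, by 0.33 ± 0.02 (2.19e-07) and Kcne4 by 0.23 ± 0.03 (1.40e-05), while Kcnk2 (-0.51 ± 0.07, 8.13e-05) and Clca3a1 (-0.05 ± 0.01, 0.00376) were among the lower. Of 11 cAMP and cGMP genes, 7 were higher and 3 lower, with a median of 0.35 against 0.00 over all genes. The guanylyl cyclase subunits Gucy1a1 (1.88 ± 0.07, limma adjusted p = 1.92e-09) and Gucy1b1 (1.53 ± 0.06, 2.91e-09) and Pde3a (1.69 ± 0.08, 8.93e-09) were the highest, and Pde4b (-0.36 ± 0.04, 4.93e-06), Adcy5 (-0.16 ± 0.05, 0.0169) and Ptger2 (-0.07 ± 0.02, 0.00936) were lower. Both comparisons share the mesothelial-like, Grem1 and Lpl cells, and the Fibin type itself is in the divisor of the first. Of 11 constrictor genes 6 were higher and 3 lower, with F2r (1.03 ± 0.06, 4.06e-08), the alpha-adrenergic receptor Adra1a (0.48 ± 0.03, 2.23e-07) and the serotonin receptor Htr2a (0.25 ± 0.02, 1.46e-06) the highest and Agtr1a (-0.27 ± 0.02, 1.10e-06), Ptgfr (-0.14 ± 0.03, 0.000731) and Tbxa2r (-0.06 ± 0.02, 0.00387) lower. Of 16 calcium entry and contractile genes 11 were higher and 1 lower, led by Acta2 (1.02 ± 0.09, 2.13e-06), the T-type calcium channel Cacna1g (0.98 ± 0.05, 1.20e-08) and Tagln (0.91 ± 0.10, 7.28e-06). Of 7 mural markers 4 were higher, led by Cspg4 (0.47 ± 0.04, 3.16e-06), and 2 lower.

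Smooth muscle cells, in which the KATP subunits were low, were compared with the 4 fibroblast groups, where limma called 793 of 1646 genes (48.2% of genes tested, 22.2% higher and 26.0% lower). Of 8 other channels, 5 were higher and 1 lower. The highest was Kcnk3 (0.43 ± 0.01, limma adjusted p = 1.89e-09), at 1.12 UMIs per 10000 in both libraries, followed by Kcnh2 (0.26 ± 0.02, 2.13e-06) and Kcnmb1 (0.22 ± 0.02, 4.01e-06), and Kcnn3 was lower (-0.54 ± 0.05, 8.79e-06). Its level in smooth muscle, 2.14 and 1.80, lay below the Fibin type in that mean. The 5 and 8 smooth muscle cells with a Kcnj8 UMI held 12.96 and 12.3, and the 30 and 166 without one 0.214 and 1.13, below the mesothelial-like and Grem1 cells in both libraries. Of 11 cAMP and cGMP genes 3 were higher, with Adcy5 (0.40 ± 0.05, 6.54e-05) ahead of Calcrl (0.28 ± 0.05, 0.000474) and Pde4b (0.16 ± 0.04, 0.00284), and 2 lower. With cells that meet a second of the first 4 gates left out, 3 of 10 were higher and 6 lower, and with any second gate left out 1 of 10 was higher and 5 lower. Of 11 constrictor genes 5 were higher and 4 lower, with Ednrb (0.24 ± 0.06, 0.00691), the purine receptor P2ry1 (0.13 ± 0.03, 0.00241) and Tbxa2r (0.13 ± 0.01, 3.29e-05) the highest. Of 18 calcium entry and contractile genes 16 were higher, led by Acta2 (2.55 ± 0.09, 2.69e-09), Tagln (2.41 ± 0.09, 4.13e-09) and Myh11 (2.07 ± 0.08, 4.59e-09), and Cacna1g was lower (-0.16 ± 0.04, 0.0130). Of 7 mural markers 4 were higher, led by Rgs5 (0.63 ± 0.08, 6.71e-05).

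The Smartseq2 plates carry values that the authors corrected onto the 10X cells, so they are not a separate measurement and are given as corrected natural log values. In 30 and 48 cells with a corrected Sox6 value above 1, the mean of Kcnj8 was 0.70 on plate 1 and 1.05 on plate 2, against 0.02 and 0.10 in the 330 and 331 other cells. The mean of Abcc9 was 1.5 and 1.48 against 0.08 and 0.14. The corrected values thus placed both subunits in the Sox6 cells of each plate.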

How the data were processed

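Small intestinal stromal cells were profiled on 2 10X libraries and 2 Smartseq2 plates. The authors aligned reads to mm10 (GRCm38) with Cell Ranger 3.1.0 (10X) or TopHat2 2.1.1 and featureCounts (Smartseq2), filtered with Seurat, scaled cells to total UMI, took the natural log and corrected the Smartseq2 values by integration. The deposited values are therefore natural log values. UMIs of 10X cells were recovered as multiples of the smallest value in each cell (100% whole, tolerance 0.01, scale 10000), and 1 row that ends early was left out. No doublet caller was run.

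The members and gene lists were chosen with earlier results of these data known. Mean natural log values per library and group (at least 10 cells) were tested with limma 3.58.1 (R 4.3.3; mean trend, library as block, one fit over 7 groups, genes above 0 in at least 5% of the cells of 1 side, Benjamini-Hochberg 0.05) and tested on simulated data. Named list genes are at most 3 per list, comparison and direction, by absolute difference among called genes with the same sign in both libraries; 5 genes of most similar pattern are named per member, and Ldhb, 5330439B14Rik and genes of the cells outside the Sox6 gate were chosen after values were seen. 1 gene that this rule names is not reported here. Intervals are exact at 95% and cover counting error only. Reference cells had at least 3 genes of an immune, glial, epithelial or endothelial list, more than of the others. Thinning to 2000 UMIs used seed 7. Alternatives were other filters, models and cell sets. Scripts ran on Python 3.11.15 with scipy 1.17.1 and numpy 2.4.6, tables were read with pandas 2.3.3, and plots drawn with matplotlib 3.10.9.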

Additional observations from a re-analysis of the deposited data

How the results depend on the processing

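Counts of genes called stayed within 1.5 times of the reported count in 28 of 28 alternatives over the 4 comparisons. Without the replicate block (the library term), limma called 1223 genes in the Sox6 comparison, 267 between Wif1+ and Wif1- cells, 1129 in the Fibin comparison and 706 in smooth muscle. Library numbers name separate libraries and are not known to pair the same animals. With 1 library left out no residual degree of freedom remained, so the limma comparisons were not tested, and the folds of 1 library stand alone. Their log2 values ran from 2.77 to 2.995 (Kcnj8) and 2.58 to 2.76 (Abcc9) in the Sox6 cells, from 3.91 to 6.86 and 3.77 to 4.70 in the Fibin type, and from 0.50 to 0.85 and 0.56 to 0.96 for Wif1+ over Wif1- cells.

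Of 8 mean log2 folds (Sox6, Fibin type, smooth muscle and Wif1, for both genes), 4 of 45 alternatives that keep both libraries moved by more than the SD between libraries, with levels of 0 not counted. The fold of Sox6 cells over the Fibin type is not among them, and with a second gate left out it moved from 1.03 to 0.66 for Kcnj8 and from 0.89 to 0.82 for Abcc9, which stood at 1.03 with at least 2 Sox6 UMIs. With all cells that met a second gate left out, which kept 40 and 374 Sox6 cells, Kcnj8 stood at 2.55 in the Sox6 cells and at 0.95 for Wif1+ over Wif1- cells. With at least 2 Sox6 UMIs required, Abcc9 stood at 2.80. The fourth was Kcnj8 in the smooth muscle gate, given above. With any second gate left out the smooth muscle folds went to 0 in both libraries for Kcnj8 and to 0 and 0.164 for Abcc9, and the mean Abcc9 log2 fold of Adamts18+ over Adamts18- cells moved from -0.77 to -2.69. Of 636 alternatives over 91 results on named list genes, 599 kept their direction and call and 35 lost the call. The 2 that reversed came with a second gate left out and were not called there, Gm13889 between Wif1+ and Wif1- cells (0.055, limma adjusted p = 0.694) and Rgs5 in the Fibin type (0.13, limma adjusted p = 0.456). The cause was not tested. Counting error limits the Kcnj8 level of the mesothelial-like, Grem1 and Lpl cells of library 1, which held 5, 5 and 8 UMIs at higher median depths per cell than in library 2.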
